A study of Mus musculus with 6 samples.

Results

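The collagen genes of mouse bone marrow-derived macrophage (BMDM) cultures were described, with and without exposure to osteosarcoma vesicles. Members were all genes whose symbol has the form Col, a type number, a and a chain number. This gave 39 of the 26835 genes with values. By the structure of their products, 11 are fibrillar, 8 belong to basement membranes and 20 are other collagens. At least 1 FPKM (fragments scaled to transcript length and sequencing depth) in at least 3 libraries was required for testing, and 18 members passed, of which 8 were fibrillar, 4 basement membrane and 6 other.

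The cells were grown from marrow of wild-type BALB/c mice aged 5 to 8 weeks, for 6 days with 10% serum and 25 ng/ml of the macrophage growth factor M-CSF. The K7M2-EV group then received 10 µg of vesicles shed by K7M2 cells, an osteosarcoma line of mouse, and the control group received PBS, for 24 h in both. Each group held 3 libraries, called biological replicates from independent experiments in the labels, which name no shared animal or day for a replicate number. The steps of the low values implied 21435538 to 25689188 reads per library. The labels describe no sort of the cultured cells. In such bulk samples, more cells of a type and more RNA per cell cannot be told apart, nor can RNA brought in by the vesicles and RNA made by the cultured cells.

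Collagens are triple-helical matrix proteins built from alpha chains, with a gene for each kind of chain. Fibrillar collagens (types I, II, III, V, XI, XXIV and XXVII) assemble into tension-bearing fibres, type IV forms the sheet of basement membranes, and type VI forms beaded filaments around cells. In marrow and bone the main producers are fibroblasts, reticular stromal cells and osteoblasts, while macrophages are better known for degrading and taking up collagen.

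Most tested collagens differed between replicate numbers in the same way in both groups. Replicate 2 was at least 1.5 times the mean of replicates 1 and 3, with PBS as well as with vesicles, for 15 of the 18. Of all 13009 genes tested, 2.40% showed this pattern, called a high replicate 2 below. Within same-numbered pairs of libraries, 5 fibrillar collagens (Col1a1, Col1a2, Col3a1, Col5a1 and Col5a3) were higher with vesicles in all 3 pairs, as were 26.6% of all genes. Another 8 members were lower in all 3 pairs, among them Col4a5 and Col24a1, as were 49.6% of all genes. Without regard to pairs, 1 member rose (Col5a3) and 2 fell (Col4a5 and Col24a1), where 18.4% of all genes rose and 35.6% fell (limma, Benjamini-Hochberg adjusted p under 0.05 over all genes). With the replicate number as a block in the fit, 5 members were higher and 6 lower, against 19.2% and 36.8% of all genes.

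Sequences upstream of 4 members are shown because these genes stood on opposite sides within the pairs. Col3a1 and Col5a3 were higher with vesicles in every pair, and Col6a3 and Col8a1 were lower. The stretches come from RefSeq windows on GRCm38.p6, 5′ to 3′ on the gene's strand, kept to bases before the first exon. They are chr1:45311288-45311537 (plus strand) for Col3a1 and chr9:20815118-20815317 (minus) for Col5a3, chr1:90844002-90844221 (minus) for Col6a3 and chr16:57754738-57754987 (minus) for Col8a1. Capitals mark any match to a CCAAT box, searched by those letters, to the common TATA box spelling TATAAA, or to the GC box spelling GGGCGG. Both strands were searched, and no matches overlapped each other in these stretches.
Col3a1: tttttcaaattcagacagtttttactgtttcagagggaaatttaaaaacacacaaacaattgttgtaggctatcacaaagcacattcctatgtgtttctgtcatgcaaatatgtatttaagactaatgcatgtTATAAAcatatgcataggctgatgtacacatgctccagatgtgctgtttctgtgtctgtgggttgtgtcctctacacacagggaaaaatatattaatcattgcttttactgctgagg
Col5a3: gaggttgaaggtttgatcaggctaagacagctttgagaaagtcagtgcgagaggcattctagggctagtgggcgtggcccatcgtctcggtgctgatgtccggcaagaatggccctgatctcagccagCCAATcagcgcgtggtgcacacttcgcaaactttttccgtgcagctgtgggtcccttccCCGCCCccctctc
Col6a3: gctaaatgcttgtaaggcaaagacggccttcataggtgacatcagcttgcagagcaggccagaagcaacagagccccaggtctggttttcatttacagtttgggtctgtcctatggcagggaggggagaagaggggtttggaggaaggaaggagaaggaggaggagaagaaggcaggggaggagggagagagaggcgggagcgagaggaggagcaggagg
Col8a1: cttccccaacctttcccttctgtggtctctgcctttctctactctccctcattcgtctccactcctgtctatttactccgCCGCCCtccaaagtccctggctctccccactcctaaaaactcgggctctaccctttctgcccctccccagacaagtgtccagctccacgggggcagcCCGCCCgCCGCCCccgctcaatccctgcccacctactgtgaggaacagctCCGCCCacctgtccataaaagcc
The Col3a1 stretch was 35.2% G and C, and held a single TATA box that begins 117 bases before the annotated start. Col5a3 held 1 CCAAT box, beginning 122 bases before the start, and 1 GC box at 58.0% G and C. Col8a1 held 4 GC boxes at 60.8% G and C, and Col6a3 held none of the 3 motifs at 56.4%. For 32 of the 39 members, 34 windows were found, each searched over the 250 bases before the start. A GC box was in 61.8% of the collagen windows and 32.7% of all 32851 windows, a CCAAT box in 35.3% and 33.8%, and a TATA box in 11.8% and 12.4%. These letter matches describe the windows only.

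Collagen I, the main fibre of bone and skin, was the most abundant member per length. Col1a1 (chromosome 11, 94936224 to 94953042 on GRCm38, plus strand) was at 65.4, 155 and 74.3 FPKM in PBS replicates 1 to 3 and at 131, 354 and 128 FPKM in K7M2-EV replicates 1 to 3. Every vesicle library was above its same-numbered PBS library, by 2.01, 2.29 and 1.72 times, yet the groups overlapped because PBS replicate 2 exceeded K7M2-EV replicates 1 and 3. The log2 fold change on the log2(FPKM + 1) scale was 0.99 (SE 0.49) and was not called by limma (adjusted p = 0.134), whereas limma called it when the replicate number was a block (adjusted p = 0.00118). Col1a2, whose chain joins that of Col1a1 in the collagen I helix, was at 20.6, 55.0 and 22.2 FPKM with PBS and at 31.7, 89.3 and 29.7 FPKM with vesicles. Its pairs differed by 1.54, 1.62 and 1.34 times, less than those of Col1a1 (limma adjusted p = 0.407 without and 0.00321 with the block). Within a library the ratio of Col1a1 to Col1a2 FPKM was 3.17, 2.81 and 3.35 with PBS and 4.15, 3.97 and 4.32 with vesicles. These ratios did not overlap between groups, at an exact two-sided permutation p = 0.1, the smallest that 3 against 3 libraries can give.

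**Figure D1:**
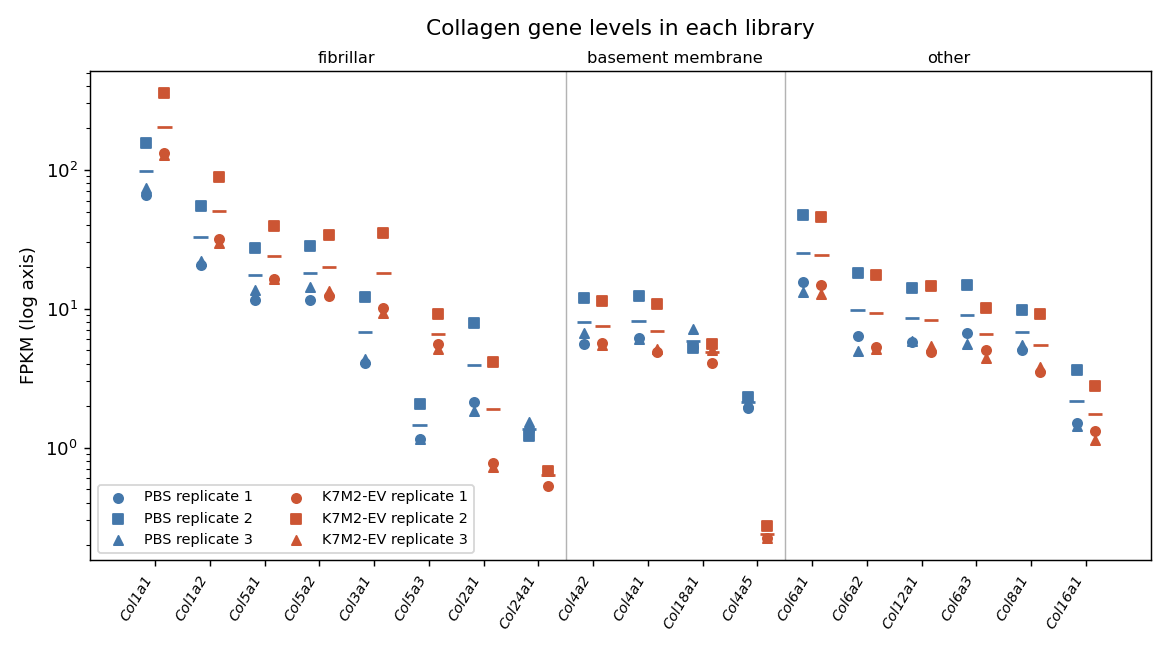
FPKM of the 18 tested collagen genes in each library, on a log axis, by class and by falling mean within a class. Points are libraries (circle, square and triangle for replicates 1, 2 and 3), short lines are group means of 3 libraries, and the squares of replicate 2 stand at least 1.5 times above the mean of the other replicates in both groups for 15 genes, including Col1a1 at 155 and 354 FPKM.

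Collagen III, a thinner fibre that accompanies collagen I in soft tissue and repair, followed the same order of libraries. Col3a1 was at 4.07, 12.1 and 4.34 FPKM with PBS and at 10.1, 34.9 and 9.26 FPKM with vesicles. The pairs were 2.48, 2.88 and 2.14 times apart, and only PBS replicate 2 reached into the vesicle range (log2 fold change 1.18, SE 0.58, limma adjusted p = 0.135 without and 0.00118 with the block). A predicted miRNA gene, Gm47302, lies inside Col3a1 on the same strand and was listed at 10.97, 33.2 and 12.2 FPKM with PBS and at 30.04, 92.4 and 26.2 FPKM with vesicles. Reads of this pair cannot be told apart with certainty, since no label says how shared bases were counted.

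Collagen V sits inside collagen I fibrils and regulates their diameter. Col5a3, the least common of its 3 chain genes, was at 1.14, 2.07 and 1.15 FPKM with PBS and at 5.58, 9.09 and 5.12 FPKM with vesicles. All vesicle libraries were above all PBS libraries, and the pairs were close to each other at 4.88, 4.38 and 4.44 times. Col5a3 rose by 1.61 on the log2(FPKM + 1) scale (SE 0.23, limma adjusted p = 0.00141), and it was the only collagen called higher in the fit without a block. Col5a1 was at 11.6, 27.5 and 13.5 FPKM with PBS and at 16.2, 39.2 and 16.5 FPKM with vesicles. Its pairs were 1.40, 1.42 and 1.22 times apart, with overlap of the groups (limma adjusted p = 0.462 without and 0.00623 with the block). An antisense gene, 2810430I11Rik, overlaps Col5a1, and whether the counting used strand is not stated in the labels. Col5a2 was at 11.6, 28.0 and 14.4 FPKM with PBS and at 12.4, 34.0 and 13.4 FPKM with vesicles. Pair 3 of Col5a2 went the other way (0.927), and neither fit called it (limma adjusted p = 0.889 without and 0.434 with the block). The chains of collagen V therefore had unequal differences within the same libraries. The Col5a3 to Col5a1 ratio ran from 0.0753 to 0.0986 with PBS and from 0.232 to 0.344 with vesicles, and that of Col5a1 to Col5a2 from 0.939 to 0.998 and from 1.15 to 1.31 (exact permutation p = 0.1 for each, the smallest possible).

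The remaining fibrillar collagens that were tested went down within pairs. Col2a1, the collagen of cartilage fibres, was at 2.12, 7.86 and 1.83 FPKM with PBS and at 0.774, 4.15 and 0.728 FPKM with vesicles. Replicate 2 stood above the mean of the other replicates by 3.98 times with PBS and 5.52 times with vesicles, the widest gap among the tested collagens. The pairs were 0.365, 0.527 and 0.397, and Col2a1 was called only with the block (limma adjusted p = 0.308 without and 0.000799 with it). Of 5 chondrocyte markers with values, none passed the filter, and the following were named after their values were seen. Acan, the main cartilage proteoglycan gene, was listed at 0 in 5 of the 6 libraries. Sox9, the cartilage transcription factor gene, was at 0.341, 1.24 and 0.292 FPKM with PBS and at 0.131, 0.567 and 0.131 FPKM with vesicles. It had the same order as Col2a1, lower in all 3 pairs, with replicate 2 above the mean of the other replicates by 3.91 times with PBS and 4.34 times with vesicles. The part of Sox9 in the Col2a1 values was not tested. Comp, another marker of this list, was at 0.533, 0.522 and 0.536 FPKM with PBS and at 0.828, 0.753 and 0.974 FPKM with vesicles. Comp was thus higher in all 3 pairs, without the high replicate 2. Matn3, from about 4 reads or fewer, was also higher in all 3 pairs, and Matn1 was mixed. Col24a1, a minor fibrillar collagen of developing bone, was at 1.34, 1.20 and 1.52 FPKM with PBS and at 0.530, 0.683 and 0.677 FPKM with vesicles. Replicate 2 was not high for this gene and the groups did not overlap. Col24a1 fell by 0.53 on the log2(FPKM + 1) scale (SE 0.08, limma adjusted p = 0.00188). It passed the filter only through its PBS libraries.

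**Figure D2:**
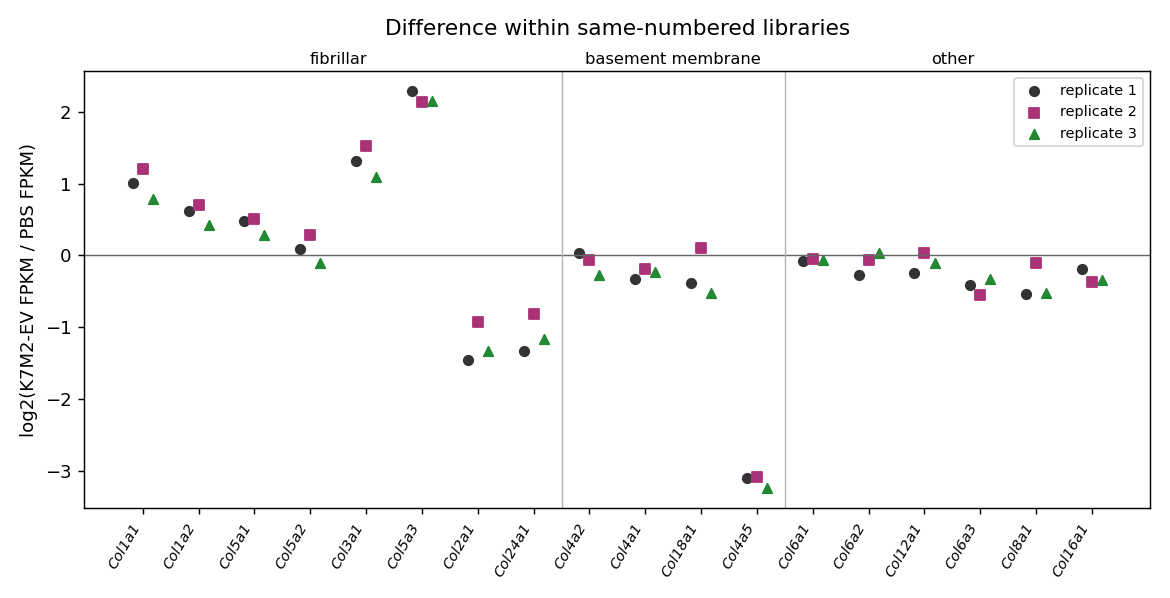
Difference between the K7M2-EV and PBS libraries of the same replicate number, as log2 of the FPKM ratio, for the 18 tested collagen genes (circle, square and triangle for replicates 1, 2 and 3, line at equal levels). In all 3 pairs, 5 fibrillar genes are above the line and 8 genes are below it.

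Among basement membrane collagens Col4a5 stood apart. Its chain belongs to the specialised type IV network of kidney, lung and eye. Col4a5 (X chromosome, 141475385 to 141689234, plus strand) was at 1.93, 2.30 and 2.12 FPKM with PBS and at 0.224, 0.271 and 0.225 FPKM with vesicles. No library of one group came near the other, and replicate 2 was only 1.14 and 1.21 times the mean of the other replicates. The ratio of means was 0.114, from about 36 reads in the vesicle library with the fewest, and the log2 fold change was -1.33 (SE 0.07, limma adjusted p = 2.38e-05). Like Col24a1, Col4a5 passed the filter only through the PBS libraries.

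The widespread type IV chains showed no such drop. Col4a1 was at 6.14, 12.4 and 6.07 FPKM with PBS and at 4.90, 10.8 and 5.15 FPKM with vesicles, and the pairs were 0.798, 0.874 and 0.848. Col4a2 was at 5.56, 11.9 and 6.68 FPKM with PBS and at 5.67, 11.3 and 5.50 FPKM with vesicles, with pairs on both sides of 1. Only Col4a1 was called with the block (limma adjusted p = 0.0202, against 0.63 without it), while Col4a2 was not called by either fit (0.83 without and 0.295 with it). The first exons of these genes overlap head to head on opposite strands. Col18a1, which encodes a heparan sulfate-bearing collagen and the source of endostatin, was at 5.26, 5.22 and 7.17 FPKM with PBS and at 4.05, 5.59 and 5.00 FPKM with vesicles. It lacked the high replicate 2, and its groups overlapped (limma adjusted p = 0.227 without and 0.161 with the block).

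Collagen VI and the other tested collagens varied chiefly by replicate. Col6a1 was at 15.5, 46.9 and 13.2 FPKM with PBS and at 14.7, 45.4 and 12.6 FPKM with vesicles, and same-numbered libraries were close, at ratios of 0.948, 0.967 and 0.957. Col6a2 was at 6.38, 18.1 and 4.99 FPKM with PBS and at 5.30, 17.4 and 5.08 FPKM with vesicles. Neither was called with or without the block (limma adjusted p of 0.31 or above). The ratio of Col6a1 to Col6a2, whose chains assemble in equal parts with that of Col6a3, was 2.56 ± 0.108 with PBS and 2.63 ± 0.148 with vesicles (SD, n = 3 each, exact permutation p = 0.5). Col6a3, the remaining chain, was at 6.71, 14.8 and 5.57 FPKM with PBS and at 5.06, 10.1 and 4.42 FPKM with vesicles. Its pairs were 0.755, 0.683 and 0.793, and only the fit with the block called it (limma adjusted p = 0.0081, against 0.459).

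Col8a1, a short-chain collagen of vessel walls, was at 5.04, 9.76 and 5.50 FPKM with PBS and at 3.47, 9.09 and 3.82 FPKM with vesicles (limma adjusted p = 0.49 without and 0.0354 with the block). The fibril-associated Col12a1 was at 5.76, 14.1 and 5.83 FPKM with PBS and at 4.85, 14.4 and 5.41 FPKM with vesicles. The fibril-associated Col16a1 was at 1.49, 3.61 and 1.43 FPKM with PBS and at 1.31, 2.79 and 1.13 FPKM with vesicles. Neither fibril-associated gene was called by either fit, and for all 3 genes the groups overlapped.

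The 21 members below the filter ranged from 0 to 1.03 FPKM, and 14 of them had a mean under 0.1 FPKM. They comprised 3 fibrillar, 4 basement membrane and 14 other collagens. None was at 0 in every library, and 8 were at 0 in at least 1. They were left out of the tests but counted in the class sums.

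In counts, limma without a block called 3 of the 18 tested members, where it called 54.0% of all genes, so the members' share was below the background. With the block it called 11, and 56.0% of all genes. Groups did not overlap for 3 of the 18 members and for 63.8% of all genes. The shares of members higher or lower in all 3 pairs were near the background given above. Left without both libraries of replicate 2, the fit with no block called the same 5 fibrillar genes higher and 5 members lower (Col2a1, Col24a1, Col4a1, Col4a5 and Col8a1). That fit called 2365 of all 13009 genes higher and 4195 lower. The median log2 fold change was -0.09 for the tested collagens and -0.12 for all genes. A median-of-ratios scaling moved the latter to -0.0024, and under it the log2 fold changes of Col4a2, Col6a1, Col6a2 and Col12a1, all uncalled, came out slightly above 0. Under that scaling limma called 3445 of all genes higher and 3376 lower, in place of 2395 and 4631. The background shares therefore depend on the scaling. All 5 tested members that were higher in every pair were fibrillar, but the fibrillar genes Col2a1 and Col24a1 were lower in every pair and Col5a2 was mixed. Below the filter, Col19a1 and Col23a1 of the other class, named here after their values were seen, were also higher in every pair. A difference between the classes in direction was not tested. The median was 0.48 for fibrillar, -0.22 for basement membrane and -0.14 for other collagens.

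Summed per library, the 11 fibrillar collagens were at 118, 289 and 134 FPKM with PBS and at 209, 566 and 204 FPKM with vesicles. Each pair was higher with vesicles (1.77, 1.96 and 1.53 times), but the groups overlapped and the mean log2 difference of 0.80 had an exact permutation p = 0.3. Flipping signs within pairs gave an exact p = 0.25, the smallest possible with 3 pairs. The basement membrane sum was 19.3, 32.1 and 22.4 FPKM against 15.1, 28.3 and 16.1 FPKM (exact permutation p = 0.4), and that of the other class was 42.9, 109 and 38.5 FPKM against 36.2, 101 and 34.1 FPKM (p = 0.5). Dividing the fibrillar by the other class within a library removed most of the spread between replicates. This ratio was 2.76, 2.65 and 3.47 with PBS and 5.77, 5.62 and 5.97 with vesicles, 1.96 times higher and without overlap (exact permutation p = 0.1, the smallest possible). The fibrillar to basement membrane ratio, in which replicate 2 was still the highest library, was 6.137, 8.997 and 5.964 with PBS and 13.849, 20.0045 and 12.676 with vesicles (exact permutation p = 0.1). The basement membrane to other ratio kept its spread, at 0.449, 0.295 and 0.582 with PBS and 0.417, 0.281 and 0.471 with vesicles (exact permutation p = 0.7). Fibrillar genes made up 65.5% to 68.7% of collagen FPKM with PBS and 80.2% to 81.4% with vesicles. Col1a1 took 53.5% to 55.6% of the fibrillar sum with PBS and 62.6% to 62.9% with vesicles, and without it the log2 difference of the sum was 0.52.

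**Figure D3:**
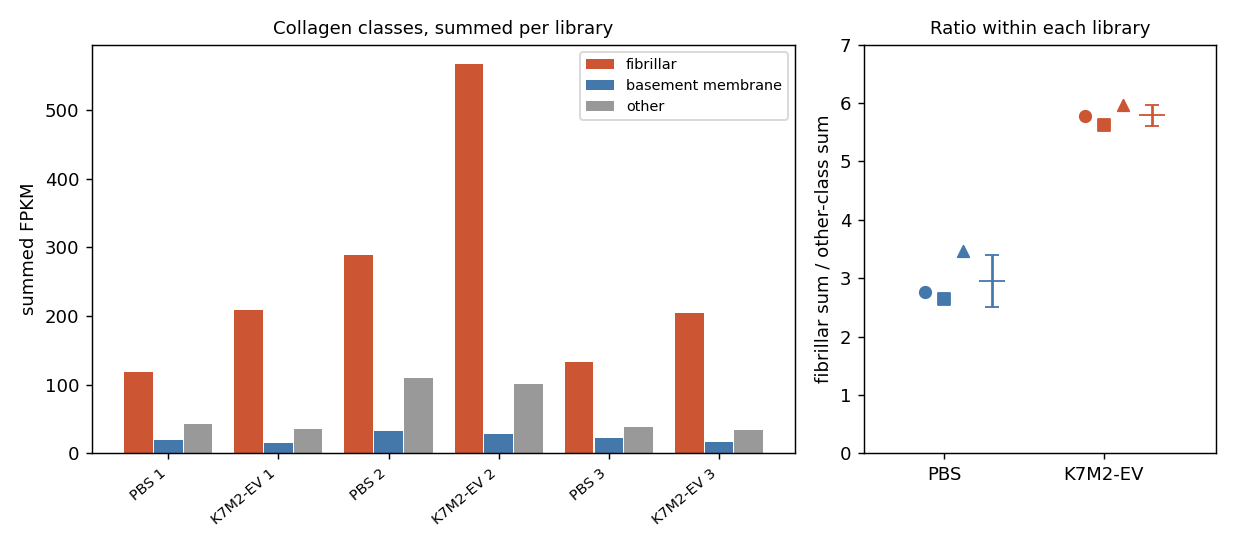
Left, FPKM summed over the collagen genes of each class in each library, with same-numbered libraries side by side. Right, the ratio of the fibrillar to the other-class sum in each library (points) with the mean and SD of 3 libraries (bars); the ratio lies between 2.65 and 3.47 with PBS and between 5.62 and 5.97 with vesicles.

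Markers of stromal cells moved with the collagens from library to library. Of 30 fibroblast and marrow stroma markers 15 were tested, and 13 of these had the high replicate 2 in both groups. Their summed level, over all 30, was 107, 246 and 112 FPKM with PBS and reached 122, 293 and 124 FPKM with vesicles. Sparc, a collagen-binding matrix protein gene, was at 28.2, 62.0 and 29.3 FPKM with PBS and at 33.3, 80.6 and 33.5 FPKM with vesicles, and the pericyte and fibroblast receptor gene Pdgfrb was at 3.57, 8.05 and 3.60 and at 4.14, 10.4 and 3.87 FPKM. Both were highest in replicate 2, like the collagens. Sparc was called higher only with the block (limma adjusted p = 0.64 without and 0.0194 with it), and Pdgfrb by neither fit (0.71 and 0.0674). Other defining markers were lower in level. The fibroblast receptor gene Pdgfra was at 0.356, 1.15 and 0.356 FPKM with PBS and at 0.505, 1.78 and 0.458 FPKM with vesicles. The small proteoglycan gene Dcn was at 0.189, 0.498 and 0.173 FPKM with PBS and at 0.441, 1.84 and 0.388 FPKM with vesicles, and Lum was listed at 0, 0.0957 and 0.0159 FPKM and at 0.322, 0.387 and 0.272 FPKM. All 3 were higher with vesicles in all 3 pairs, and in Pdgfra and Dcn replicate 2 stood high in both groups. Bgn, Prrx1, Ogn and Cxcl12 of the same list, named after their values were seen, went the other way. They were lower in all 3 pairs and were called lower with the block. Cxcl12 was at 1.29, 3.73 and 1.21 FPKM with PBS and at 0.519, 2.87 and 0.725 FPKM with vesicles. Of the 30 markers, 6 had means under 0.1 FPKM. Postn, the periostin gene, was at 2.33, 2.09 and 2.11 FPKM with PBS and at 2.01, 5.21 and 2.33 FPKM with vesicles and so was high in K7M2-EV replicate 2 alone. None of the 15 was called without the block, and 5 were higher and 4 lower with it. Of all genes, 18.4% rose and 35.6% fell without the block, and 19.2% were higher and 36.8% lower with it. Divided by this marker sum, a ratio added after seeing the data, the fibrillar collagens were at 1.10, 1.17 and 1.20 with PBS and at 1.71, 1.94 and 1.65 with vesicles, without overlap (exact permutation p = 0.1).

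Markers of contractile cells had the same high replicate, with lower values for vesicles within pairs. All 4 tested smooth muscle and pericyte markers, led by the actin gene Acta2 and by Tagln, both named after their values were seen, had the high replicate 2 in both groups. Acta2 was at 90.1, 222 and 118 FPKM with PBS and at 64.7, 177 and 84.6 FPKM with vesicles. The list's summed level ran from 137 to 328 FPKM with PBS and from 89.4 to 238 FPKM with vesicles. Its 4 tested genes were called lower only with the block, which called 36.8% of all genes lower. Col1a1 relative to Acta2, a ratio with a gene picked after its values were seen, was 0.684 ± 0.0481 with PBS and 1.85 ± 0.291 with vesicles (SD, n = 3 each, exact permutation p = 0.1). Since Col1a1 was higher and Acta2 lower in all 3 pairs, a higher ratio in each pair was already given, and its p adds no separate evidence.

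Osteoblast markers, which osteosarcoma cells can also express, were low. Of 12 osteoblast markers with values, the summed level ran from 3.40 to 5.43 FPKM with PBS and from 2.57 to 4.04 FPKM with vesicles. The bone transcription factor gene Runx2 fell from 1.51 ± 0.216 to 0.721 ± 0.178 FPKM (SD, n = 3 each, limma adjusted p = 0.00488). It passed the filter only through its PBS libraries. Sp7, which marks committed osteoblasts, did not exceed 0.548 FPKM in any library. Among 9 endothelial markers with values, only Vwf was tested, and it fell from 5.93 ± 0.644 to 0.982 ± 0.112 FPKM (SD, n = 3 each, limma adjusted p = 1.76e-05). Of the vesicle libraries 1 was above 1 FPKM for Vwf. The list's sums were 6.27 to 7.46 FPKM with PBS and 1.44 to 1.67 FPKM with vesicles.

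Macrophage markers, which check the labelled cell type, were abundant and did not follow the collagen order. Csf1r, the M-CSF receptor gene, was at 190, 157 and 190 FPKM with PBS and at 234, 211 and 244 FPKM with vesicles. Adgre1, which encodes F4/80, was at 194, 140 and 177 FPKM with PBS and at 1965, 1617 and 1891 FPKM with vesicles. None of 12 tested markers had the high replicate 2, and their median ratio of replicate 2 to the others was 0.863 with PBS and 0.969 with vesicles, against 2.20 and 2.44 for the tested collagens and 1.02 and 1.00 for all genes. Of the 12, 9 rose and 1 fell, with Adgre1 up by 3.42, Aif1 by 2.76, Fcgr1 by 1.58 and Lyz2 by 1.54 on the log2 scale (limma adjusted p = 7.83e-06, 1.74e-05, 2.41e-05 and 5.69e-05). Of all genes, 18.4% rose and 35.6% fell. The marker that fell was Cd68, named after its values were seen (log2 fold change -1.02, limma adjusted p = 0.000129). Cd68 was at 427, 370 and 436 FPKM with PBS and at 196, 195 and 216 FPKM with vesicles. Whether the stromal and contractile transcripts account for any collagen difference was not tested.

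**Figure D4:**
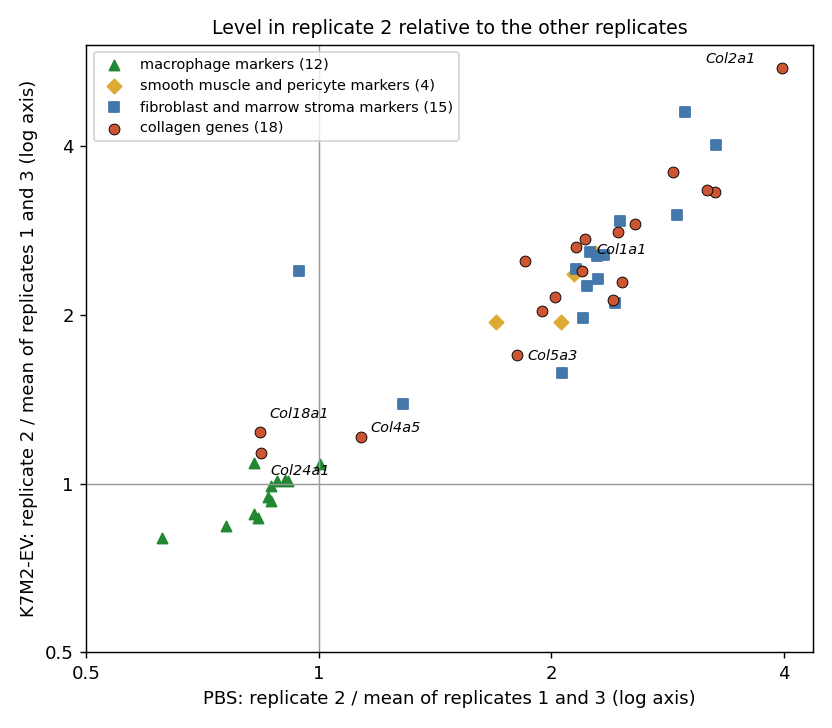
Level in replicate 2 divided by the mean of replicates 1 and 3, with PBS (horizontal) and with K7M2 vesicles (vertical), both on log axes, for the tested genes of 4 groups. Of the collagens, 15 of 18 lie above 1.5 on both axes with the stromal markers, while Col4a5, Col18a1 and Col24a1 lie nearer the macrophage markers around 1.

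Genes that build collagen inside the cell were measured next. Prolyl and lysyl hydroxylases modify the chains and chaperones fold the helix before export. Of 19 tested, 6 rose and 2 fell without the block, and 9 were higher and 2 lower with it. After median-of-ratios scaling none was lower. Here and for the lists below, 18.4% of all genes rose and 35.6% fell without the block. With it 19.2% of all genes were higher and 36.8% lower. P4hb, the shared beta subunit of prolyl hydroxylase, which is also protein disulfide isomerase, was at 88.7, 102 and 102 FPKM with PBS and at 210, 201 and 211 FPKM with vesicles (log2 fold change 1.08, SE 0.07, limma adjusted p = 5.49e-05). Its catalytic partner P4ha1 rose by 0.63, the lysyl hydroxylase gene Plod3 by 0.57 and the ion channel gene Tmem38b by 0.86 on the same scale (adjusted p = 0.00186, 0.000343 and 0.000207). None of these 4 genes had the high replicate 2. Serpinh1, the collagen-specific chaperone HSP47, did have it, at 9.57, 19.5 and 8.87 FPKM with PBS and at 9.64, 24.6 and 9.91 FPKM with vesicles, and neither fit called it (limma adjusted p = 0.773 without and 0.13 with the block).

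Outside the cell, propeptides are cut off and lysyl oxidases cross-link the fibres. Lox, the main cross-linking enzyme gene, was at 15.8, 45.7 and 18.7 FPKM with PBS and at 75.1, 92.7 and 70.8 FPKM with vesicles. Its replicate 2 stood out with PBS by 2.64 times and with vesicles by only 1.27 times. Lox rose by 1.68 (SE 0.38, limma adjusted p = 0.00962) and Bmp1, which removes the carboxyl propeptide, also by 1.68, from 1.66 ± 0.951 to 7.23 ± 0.744 FPKM (SD, n = 3 each, adjusted p = 0.00126). Of the 7 genes tested in this list these were the 2 called without the block, and with it 5 were higher and 1 lower. Lox lost its call when both libraries of replicate 1 (adjusted p = 0.0705) or of replicate 3 (0.0843) were left out.

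Among genes that cleave collagen, the gelatinase gene Mmp9 was at 2.43, 5.81 and 2.02 FPKM with PBS and at 420, 504 and 453 FPKM with vesicles. Mmp14, a membrane-bound collagenase gene, was at 2.69, 5.32 and 2.55 FPKM with PBS and at 67.0, 61.1 and 71.4 FPKM with vesicles, and Mmp8, the neutrophil collagenase gene, rose by 2.64 (limma adjusted p = 0.000134). These 3 rose and Pepd, which cleaves proline-ended dipeptides, fell by 0.50 (adjusted p = 0.000255) among 7 tested, and with the block 3 were higher and 2 lower. Among 6 collagen receptor and uptake genes, the mannose receptor Mrc1 fell from 43.7 ± 4.04 to 3.59 ± 1.18 FPKM and the inhibitory receptor Lair1 by 0.50 (adjusted p = 2.78e-05 and 0.00194). Itga11, the fibroblast integrin for fibrillar collagen, was at 0.653, 1.61 and 0.791 FPKM with PBS and at 2.11, 5.86 and 2.40 FPKM with vesicles. It rose by 1.08 (limma adjusted p = 0.0325) and had the high replicate 2 in both groups, like the fibrillar genes. Its call was lost without PBS replicate 1 (adjusted p = 0.0959) or 3 (0.0948), without both libraries of either number (0.0882 and 0.128) and with no filter (0.0653).

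Partners of collagen IV in basement membranes went both ways. Of 8 tested, 1 rose and 3 fell, where 18.4% of all genes rose and 35.6% fell. With the block 2 were higher and 5 lower, against 19.2% and 36.8% of all genes. Agrn, a heparan sulfate proteoglycan gene, rose by 1.11, while the laminin chain genes Lama3, Lamb2 and Lamc1 fell by 1.28, 0.85 and 0.45 (limma adjusted p = 2.12e-05, 4.13e-05, 0.0193 and 0.043). The calls of Lamb2 and Lamc1 were lost without PBS replicate 2 (0.0577 and 0.114) or 3 (0.0525 and 0.0872) or K7M2-EV replicate 1 (0.0611 and 0.119) or 3 (0.0655 and 0.116), and without both libraries of replicate 1 (0.0813 and 0.106) or 3 (0.139 and 0.197). That of Lamc1 was also lost without PBS replicate 1 (0.0506), with a looser or no filter (0.056 and 0.0818) and under both other scalings (0.106 and 0.0575). Lama3, like Col4a5, was above 1 FPKM with PBS only, at 1.55, 1.28 and 1.67 FPKM against 0.0232, 0.0294 and 0.0348 FPKM.

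TGF-beta signalling, a known inducer of fibrillar collagen genes in fibroblasts, was represented by 15 tested genes. Without the block 3 rose and 6 fell, near the shares of 18.4% and 35.6% over all genes. With it 4 were higher and 10 lower, against 19.2% and 36.8% of all genes. The receptor gene Tgfbr1 fell from 31.5 ± 4.94 to 9.73 ± 0.544 FPKM and the inhibitor gene Smad7 by 1.09 on the log2 scale (limma adjusted p = 8.76e-05 and 8.83e-05). The target gene Tgfbi, which encodes a collagen-binding protein, rose from 14.5 ± 2.80 to 70.5 ± 12.7 FPKM, and Skil, a feedback repressor gene, rose by 0.86 (adjusted p = 0.000115 and 0.000466), SD with n = 3 each.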

How the data were processed

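RNA of 6 BMDM cultures was sequenced by the authors after total RNA isolation and library preparation with a NEBNext Ultra kit, per the labels' protocols. The authors deposited FPKM values, 1 table of 26883 rows per library. Per the submitters' processing notes, the tools were HISAT2 2.1.0, StringTie 1.3.4b, CASAVA 1.8 and edgeR on build GRCm38, with no roles stated. Strandedness of the counting is not stated there. A row without a value (1) and 47 rows of repeated symbols were dropped, keeping the row with the highest mean. Gene positions and lengths came from GENCODE M21.

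Read totals were read off the steps of low FPKM values (of values equal to 20 reads or fewer, 72.5% to 73.4% lay within 0.1 of a whole read). Since this leaves many values unmatched, no count test was run, and read numbers are approximate.

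The filter of 1 FPKM in 3 libraries left 13009 genes. Their log2(FPKM + 1) values were fitted in R 4.3.3 by limma 3.58.1 (trend and robust eBayes, statmod 1.5.0), with no block as the main design and Benjamini-Hochberg adjustment over all genes. This scale understates the change of low genes. Fold changes within pairs are FPKM ratios. Sums and ratios were compared by exact two-sided permutation over libraries. P-values measure the spread between these cultures. Tables and plots used pandas 2.3.3, numpy 2.4.6 and matplotlib 3.10.9 under Python 3.11.15, and the fits were tested on simulated data.

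Deviations from the group means correlated at 0.317, 0.294 and 0.209 across genes between libraries numbered 1, 2 and 3 (0.303, 0.243 and 0.192 without collagens and listed genes), and each library correlated best with its own number. The numbers were therefore taken to pair the libraries on this evidence, with no label behind it. With 3 libraries per group this is slender evidence. For collagens, values with the block are printed where they change a call. For most other genes only counts with the block are given.

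Collagens with a mean of at least 1 FPKM, or called, were named with all values. From each of 12 gene lists up to 4 called members with the largest change were named, with 14 genes whatever their result. A gene that this rule names (1) is not reported here. The members, classes and lists were chosen with earlier results of these data known. Alternatives were other pseudocounts, filters and scalings, and fits that left out libraries.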

Additional observations from a re-analysis of the deposited data

How the results depend on the processing

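The calls of Col5a3, Col4a5 and Col24a1 were kept under every pseudocount, filter, scaling and left-out library tried. The left-out fits kept the genes that had passed the filter with all 6 libraries. Col4a5 and Col24a1 had passed only through the PBS libraries. Without a PBS library, the filter of 1 FPKM in 3 libraries would not have kept these genes for testing. All other calls among the 18 tested collagens rest on the replicate block or on leaving out both libraries of replicate 2. With the block 5 collagens were higher and 6 lower, and in the lists 38 genes were higher and 35 lower in place of 25 and 18. The fit with the block called 19.2% of all genes higher and 36.8% lower, in place of 18.4% and 35.6%. Without both libraries of replicate 2 and with no block, 5 collagens were higher, the same as with the block, and 5 lower, and 31 list genes were lower. That fit called 2365 of all 13009 genes higher and 4195 lower. Over all fits with no block that left out a number or a single library, the lists had from 12 to 31 genes lower. Over the same fits, from 2847 to 4281 of all 13009 genes were lower. With the block and 1 replicate number left out (added after seeing the data), the higher collagens remained the same 5, and 4 were lower without replicate 1, 6 without replicate 2 and 4 without replicate 3. In these fits 1929 of all 13009 genes were higher and 3754 lower without replicate 1, 2304 and 4029 without replicate 2, and 1898 and 3546 without replicate 3. With no filter 2 of 39 members were higher and 3 lower, where 2497 of 26835 genes were higher and 5576 lower. With a filter of 0.1 FPKM 2 of 27 members were higher and 4 lower, where 2619 of 20111 genes were higher and 5748 lower.

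Of the 15 uncalled tested collagens, 8 changed sign in a fit with a library or number left out and 7 kept their sign. Those 7 included Col1a1 (0.51 to 1.37) and Col3a1 (0.59 to 1.62), but Col1a2 (0.059 to 1.00) and Col5a1 (0.00015 to 0.76) came close to no difference. The others were Col2a1 (-1.29 to -0.25), Col8a1 (-0.69 to -0.059) and Col18a1 (-0.38 to -0.096). After median-of-ratios scaling, Col12a1, Col4a2, Col6a1 and Col6a2 became slightly positive (0.039, 0.035, 0.081 and 0.043). Over fits that left out 1 library or both of a number, the log2 difference of the other-class sum ran from -0.68 to 0.30, and that of the fibrillar sum from 0.32 to 1.20. Log2 fold changes ran from -0.36 to 0.44 for Col5a2, -0.53 to 0.30 for Col12a1, -0.45 to 0.11 for Col16a1, -0.54 to 0.085 for Col4a1, -0.40 to 0.19 for Col4a2, -0.61 to 0.49 for Col6a1, -0.61 to 0.42 for Col6a2 and -0.69 to 0.0055 for Col6a3. They ran from -0.26 to 0.49 for Serpinh1, -0.20 to 0.52 for Pdgfrb, -0.025 to 0.55 for Postn and -0.15 to 0.62 for Sparc. No cause of these ranges was tested. A left-out library leaves an arm of 2, whose spread is pooled with the other arm.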

Other observations

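Of the 21 collagens below the filter, 7 had no overlap between the groups. The share of 63.8% covers only genes that passed the filter, and no share was computed for genes below it. The 3 of these 7 collagens that a looser filter called are named here after their values were seen. Col19a1, a fibril-associated collagen gene, was at 0.0232, 0.0179 and 0.0397 FPKM with PBS and at 0.418, 0.247 and 0.525 FPKM with vesicles, from about 3 to 7 and 38 to 87 reads. Col6a6 was at 0.453, 0.348 and 0.441 FPKM with PBS and at 0.0973, 0.0880 and 0.0811 FPKM with vesicles. Col20a1 was at 1.03, 0.737 and 0.992 FPKM with PBS and at 0.577, 0.50 and 0.667 FPKM with vesicles. In none of these 3 genes was replicate 2 the highest library of both groups, unlike most tested collagens. Col19a1 was called higher and Col6a6 lower by limma with no filter or a filter of 0.1 FPKM, and Col20a1 lower with the latter only.

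Replicate 2 was at least 1.5 times the mean of replicates 1 and 3 in both groups for 312 genes, of which 15 were collagens, 42 belonged to a list and 255 to neither. The opposite pattern, with replicate 2 lower by the same factor, was found in 64 genes. Of the 312, limma called 49 without the block and 200 with it, 59 higher and 141 lower. Of all tested genes it called 54.0% without the block and 56.0% with it, 19.2% higher and 36.8% lower. The following were named after their values were seen. Thbs2, a matricellular thrombospondin gene, was at 4.53, 11.7 and 4.42 FPKM with PBS and at 9.82, 25.8 and 9.76 FPKM with vesicles, differences like those of Col1a1. Aebp1, a collagen-binding protein gene, was at 9.93, 24.6 and 8.55 FPKM with PBS and at 10.9, 27.3 and 10.4 FPKM with vesicles. Thbs2 and Aebp1 were called higher only with the block (limma adjusted p = 0.117 and 0.78 without, 0.000239 and 0.0391 with it). Cavin1, a coat gene of caveolae, had the same order of libraries and went down, from 12.8, 32.0 and 13.5 FPKM to 3.42, 9.96 and 4.11 FPKM (limma adjusted p = 0.0267 without the block). The chemokine genes Ccl7 and Cxcl5 shared the order and went up, Ccl7 from 3.24, 9.66 and 3.60 FPKM to 12.9, 37.1 and 16.6 FPKM and Cxcl5 from 0.201, 0.538 and 0.155 FPKM to 17.9, 51.2 and 27.8 FPKM. The limma adjusted p for Ccl7 was 0.0188 without the block, and Cxcl5 passed the filter only through its vesicle libraries. Genes with the high replicate 2 therefore differed in both directions with vesicles, as did the tested genes as a whole.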
